A study of Homo sapiens with 8 samples.

Results

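The genes described here encode dual-specificity phosphatases (DUSP), Sprouty proteins (SPRY) and Sprouty-related proteins with an EVH1 domain (SPRED). They were taken from the authors' table by name, as every locus whose gene name was DUSP with a number, SPRY1 to SPRY4 or SPRED1 to SPRED3. The rule found 32 of 29004 loci, which carry 31 gene names (24 DUSP, 4 SPRY and 3 SPRED genes), since SPRY3 has a locus on each sex chromosome. The expression of these genes was compared between LATS2 OE cells, in which LATS2 wild-type had been induced with 125 ng/mL doxycycline for 8 h, and untreated cells (4 samples each). Both groups came from 1 stable line of AB8/13, an immortalized human podocyte line that carries the doxycycline-inducible LATS2 construct from a lentiviral vector. All LATS2 OE samples and no untreated samples received doxycycline, so effects of the drug and of LATS2 cannot be told apart. The labels do not state if replicate samples were grown as independent cultures.

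MAP kinase cascades pass signals from growth factor receptors through RAS and RAF to ERK, and stress signals to JNK and p38. The MAP kinase phosphatases among the DUSPs remove both activating phosphates from these kinases, and several of their genes are switched on by the kinases that they inactivate. Sprouty and SPRED proteins act further up, at the receptor, RAS and RAF steps, and many of them are also induced by ERK. Not all atypical DUSPs act on these kinases, and DUSP11, for example, acts on RNA.

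The table holds 1 value per group in FPKM, a read level scaled to transcript length and to the size of the library, pooled by the authors over the 4 samples. No spread between samples, no test across samples and no depth per sample could therefore be computed, and a ratio below has no replicate check. In such bulk RNA, less RNA per cell cannot be told apart from fewer cells that express a gene. In many cells of at least 1 FPKM the decimal point had been moved, so that exactly 3 digits follow it and the true level is unknown by a power of 10. Values whose point was not moved are called intact. The ratio of the groups was taken as the one nearest to 1 that the digits allow. It was treated as settled up to 1.75-fold. Where both values had a moved point, the next possible ratio is then at least 5.71-fold the other way. A true difference of that size would therefore be read as a small one in the wrong direction. Where 1 value was intact, the next ratio can lie the same way, as for DUSP15 (12.8-fold). A true difference of that kind would be read as too small. Taking the ratio nearest to 1 is an assumption, which was not tested at these levels. All 20 member loci with a mean of at least 1 FPKM had a settled ratio. Of all 12065 named loci at that level, 197 (1.63%) had not. LATS2 itself was among these 197, with digits that allow a 2.01-fold or 20.1-fold higher level in LATS2 OE cells but also one 4.97-fold lower. The paper reports LATS2 mRNA as the most increased. CYR61, a YAP target gene, was at least 2.55-fold lower in LATS2 OE cells at every placing of the point (up to 462 FPKM, against 1181 FPKM in untreated cells). It is 1 of 9 listed loci, YAP/TAZ targets with LATS2 itself, of which 7 were not settled. The ratio nearest to 1 was higher for CTGF, ANKRD1 and AMOTL2 and lower for F3 and AJUBA, and no direction is read from these. The paper lists CTGF, ANKRD1 and AMOTL2 with its most downregulated genes, so their nearest ratio has the wrong direction. The settled AMOTL1 and AXL had log2 ratios of 0.09 and -0.25. Of 10 podocyte markers, 5 had at least 1 FPKM in both groups, including SYNPO and PODXL, while others, NPHS1 and PTPRO among them, lay below 0.1 FPKM. Of markers of other cells, PDGFRB and AQP1 reached 1 FPKM, and the endothelial markers PECAM1, CDH5, VWF and TEK lay below 0.1 FPKM in both groups.

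At the ratio nearest to 1, most of these transcripts had pooled levels in LATS2 OE cells near those of untreated cells. Keeping that ratio favours such closeness by its rule. For every member with a mean of at least 1 FPKM the digits also allow a difference of at least 6.16-fold. DUSP14 was 1.62-fold lower in LATS2 OE cells and was the only member of at least 1 FPKM past a 1.5-fold difference. Next came DUSP1, the classical immediate early phosphatase, at 1.38-fold lower and SPRY2 at 1.27-fold lower. DUSP15 was at least 1.28-fold and DUSP10 1.27-fold higher. The remaining 15 of 20 members lay within 0.32 of 0 on the log2 scale, the smaller of the differences counted. Below 1 FPKM, DUSP2 was 2.12-fold lower, at 0.203 against 0.429 FPKM, and SPRED3 at least 1.46-fold higher. DUSP4 and the X chromosome locus of SPRY3 were 2.89-fold and 2.05-fold higher, but below 0.1 FPKM in both groups, where ratios are not read. Among members of at least 1 FPKM, ratios on both sides of 0 occurred within the JNK and p38 phosphatase, Sprouty, SPRED and atypical DUSP groups. The Sprouty and SPRED groups had only 2 members each at that level.

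Of the 20 members with a mean of at least 1 FPKM, 1 (5.0%) was at least 1.5-fold lower, against 0.87% of the 12065 named loci at that level, and 0 were at least 1.5-fold higher, against 0.738%. At the smaller difference of 0.32 on the log2 scale, 3 members (15.0%) were lower, against 3.91% of loci, and 2 members (10.0%) were higher, against 3.86%. Of these, DUSP15 reached a mean of 1 FPKM only through its value in LATS2 OE cells, so its count is no support for a difference. The 197 loci without a settled ratio count as tested but not as called, although even their nearest ratio is past 1.75-fold. The limit of 1.75-fold was set after the values had been seen. With the limit of 2-fold used first, 1.28% of loci were at least 1.5-fold lower and 1.01% higher. The members' counts were the same, which was fixed, since all 20 were already settled at 1.75-fold. With 20 members, 1 gene makes 5.0%. Below 0 on the log2 scale were 13 members and above it 7, with a median log2 ratio of -0.05. Of the 11868 settled loci, 51.3% lay below 0, with a median of -0.0033 and an interquartile range from -0.07 to 0.07.

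**Figure D1:**
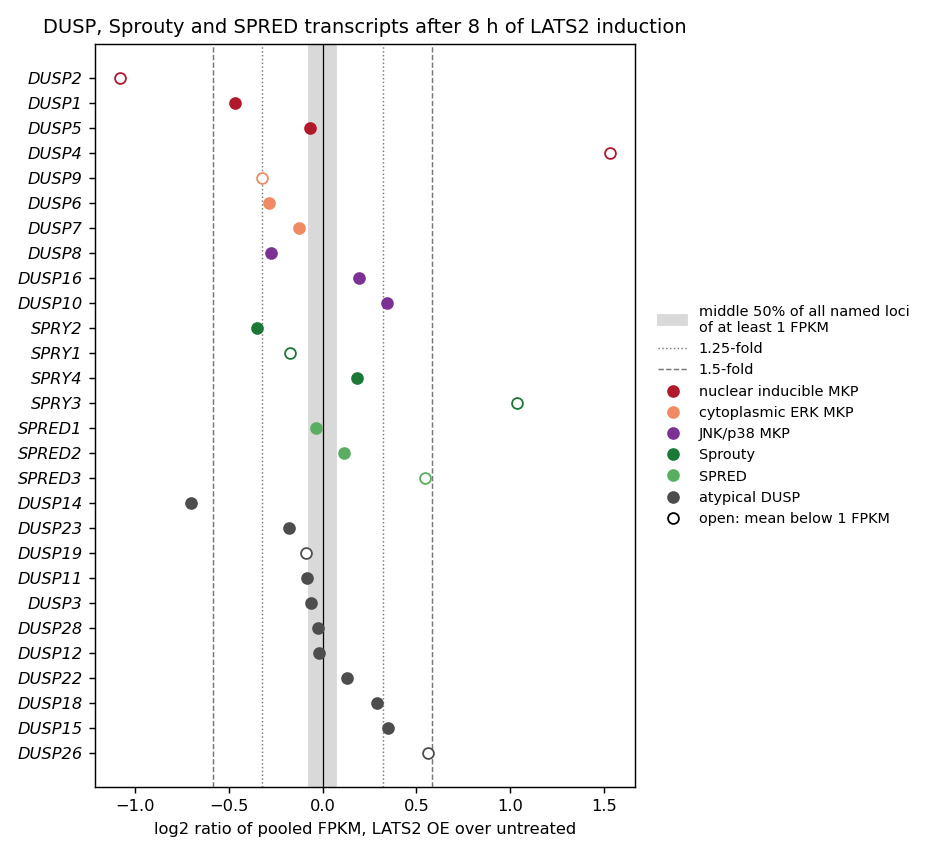
Log2 ratio of pooled FPKM (LATS2 OE over untreated) of the 28 members above 0 in both groups, ordered by role, with filled points for a mean of at least 1 FPKM and open points below it. The grey band is the interquartile range of all settled loci, and the dotted and dashed lines mark log2 ratios of 0.32 in size and 1.5-fold. DUSP14 is the filled point past a dashed line, at -0.70.

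The promoters of 3 phosphatase genes are shown because DUSP14 and DUSP1 had the lowest ratios among members with a mean of at least 1 FPKM and because DUSP8 shares with DUSP1 a cyclic AMP response element (CRE), a choice made after the matches and ratios had been seen. Each window runs from 250 bases before to 50 bases after the annotated gene start, 5′ to 3′ on the gene's strand, from RefSeq on GRCh38.p14. They are DUSP1 at chr5:172771146-172771445 on the minus strand, DUSP8 at chr11:1572222-1572521 on the minus strand and DUSP14 at chr17:37489641-37489940 on the plus strand. Capitals mark the CRE (TGACGTCA) and the TATA box (TATAAA).
DUSP1: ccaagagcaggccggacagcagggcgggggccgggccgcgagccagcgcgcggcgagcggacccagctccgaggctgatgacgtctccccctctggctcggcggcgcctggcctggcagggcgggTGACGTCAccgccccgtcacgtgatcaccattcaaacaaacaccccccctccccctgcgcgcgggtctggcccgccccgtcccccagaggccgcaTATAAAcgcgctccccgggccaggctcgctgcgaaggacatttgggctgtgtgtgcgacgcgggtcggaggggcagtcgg
DUSP8: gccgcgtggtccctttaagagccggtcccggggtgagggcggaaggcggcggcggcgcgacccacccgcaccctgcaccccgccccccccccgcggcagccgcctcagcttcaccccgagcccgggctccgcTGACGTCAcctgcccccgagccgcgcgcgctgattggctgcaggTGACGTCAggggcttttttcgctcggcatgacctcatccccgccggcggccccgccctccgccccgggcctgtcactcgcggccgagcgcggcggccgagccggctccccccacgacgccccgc
DUSP14: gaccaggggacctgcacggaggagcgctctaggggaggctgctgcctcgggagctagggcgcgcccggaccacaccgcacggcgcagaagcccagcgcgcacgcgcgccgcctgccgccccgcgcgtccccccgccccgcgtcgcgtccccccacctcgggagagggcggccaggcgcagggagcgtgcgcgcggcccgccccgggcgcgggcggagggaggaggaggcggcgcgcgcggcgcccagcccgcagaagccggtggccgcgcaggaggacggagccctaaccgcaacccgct

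The CRE of DUSP1 starts 125 bases and its TATA box 30 bases before the gene start. DUSP8 holds 2 copies of the CRE, 118 and 74 bases before the start. The DUSP14 window holds none of the motifs searched and has a GC content of 81.0%. Promoters of 25 of the 31 member genes were matched, 40 windows in all. Both strands were searched for 5 motifs. The CRE was found in 2 of these 40 windows (DUSP1 and DUSP8) and in 1.85% of all 35116 promoter windows. The TEAD core GGAATG, the DNA element of the partners of YAP, was found in 2 windows (DUSP19 and SPRY4), against 14.0% of all windows. The AP-1 element TGANTCA was found in windows of SPRED2, SPRED3 and SPRY3 (7.71% of all windows). The TATA box was found in windows of DUSP1, SPRED2 and SPRY3 (11.5%) and the ETS element CCGGAAGT in 0 of the 40 (4.14%). The SPRY3 matches lay only in a Y chromosome window, and its Y locus was listed at 0 in both groups. SPRED2 and SPRED3 each also have a window without a match. Some of the 40 windows overlap or are identical. A match in these windows is a description of the letters and not a binding site.

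Among the nuclear phosphatases that are induced with immediate early genes, 0 of the 2 members of at least 1 FPKM were past 1.5-fold. Over all loci, 0.87% were lower and 0.738% higher by that size, so 0 of 2 says little. DUSP1 (MKP-1) inactivates p38, JNK and ERK in the nucleus. Its digits give 4.30 FPKM in LATS2 OE cells, against 5.93 FPKM in untreated cells, or both 10 or 100 times higher. The log2 ratio was -0.46, and 1.95% of the settled loci had a ratio as low or lower, a share that, like those below, leaves out the 197 loci without a settled ratio. DUSP5, an ERK-specific nuclear phosphatase, had a log2 ratio of -0.07, with 6.14 FPKM in LATS2 OE cells and 6.43 FPKM in untreated cells at the lowest level. DUSP2, which is best known from activated immune cells, had intact values of 0.203 FPKM in LATS2 OE cells and 0.429 FPKM in untreated cells, a log2 ratio of -1.08. DUSP4 was close to absent, with 0.0154 FPKM in LATS2 OE cells and 0.00532 FPKM in untreated cells, and its ratio is not read at this level. The hg19 locus of DUSP1 spans bases 172195093 to 172198203 of chromosome 5 (minus strand) and overlaps an antisense long noncoding RNA. The library kit did not mark strand, so reads of such partners cannot be told apart. Genes on the other strand also overlap DUSP6, DUSP8, DUSP12, DUSP13, DUSP19 and DUSP28.

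The cytoplasmic ERK phosphatases had ratios below 0 that stayed within 0.32 of 0 on the log2 scale where the level reached 1 FPKM. DUSP6 (MKP-3), an ERK-specific phosphatase and a common readout of ERK activity, had 1.96 FPKM in LATS2 OE cells and 2.38 FPKM in untreated cells at the lowest of 3 possible levels. Its log2 ratio was -0.28, and 4.97% of settled loci were as low or lower. DUSP7, its close relative, had 1.35 FPKM in LATS2 OE cells and 1.47 FPKM in untreated cells, or both 10 times higher, a log2 ratio of -0.12. DUSP9, the third of this kind, had intact values of 0.212 FPKM in LATS2 OE cells and 0.265 FPKM in untreated cells.

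The phosphatases that prefer JNK and p38 lay on both sides of 0. DUSP10 (MKP-5) was higher, with 3.96 FPKM in LATS2 OE cells and 3.12 FPKM in untreated cells at the lowest of 3 possible levels, a log2 ratio of 0.34. Of the settled loci, 3.39% were as high or higher. DUSP16 (MKP-7) had 5.65 FPKM in LATS2 OE cells and 4.93 FPKM in untreated cells, or both 10 times higher, a log2 ratio of 0.20, but its locus is 2.31 times as long as the annotated gene and takes in BORCS5 and other genes, so its value is uncertain. DUSP8 had 5.73 FPKM in LATS2 OE cells and 6.94 FPKM in untreated cells at the lowest of 3 levels, a log2 ratio of -0.28. DUSP8 has 5 annotated pseudogenes and DUSP5 has 2, and reads shared with these copies cannot be separated. The hg19 locus of DUSP10 spans bases 221874762 to 221916526 of chromosome 1 (minus strand).

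Of the Sprouty genes, SPRY2, an inhibitor of receptor tyrosine kinase signaling, was lower with 1.18 FPKM in LATS2 OE cells and 1.50002 FPKM in untreated cells at the lowest of 3 possible levels, a log2 ratio of -0.35. SPRY4, which acts on the same pathway, had 2.38 FPKM in LATS2 OE cells and 2.10 FPKM in untreated cells, or both 10 times higher, a log2 ratio of 0.19. They stood on opposite sides of 0, with 3.46% of settled loci as low as SPRY2 and 9.70% as high as SPRY4. SPRY1 had intact values of 0.194 FPKM in LATS2 OE cells and 0.219 FPKM in untreated cells. SPRY3 had 0.00241 FPKM in LATS2 OE cells and 0.00117 FPKM in untreated cells at its X chromosome locus, and its Y chromosome locus was listed at 0 in both groups. The hg19 locus of SPRY2 spans bases 80910112 to 80915086 of chromosome 13 (minus strand).

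SPRED proteins bring neurofibromin to the membrane, where it inactivates RAS. At the ratio nearest to 1, SPRED1 and SPRED2 differed little between the groups, with log2 ratios of -0.03 and 0.12. SPRED1 had 6.62 FPKM in LATS2 OE cells and 6.78 FPKM in untreated cells at the lowest of 3 levels, and SPRED2 had 9.78 FPKM in LATS2 OE cells and 9.03 FPKM in untreated cells, or both 10 times higher. SPRED3 was higher, with 1.09 FPKM in LATS2 OE cells and 0.744 FPKM in untreated cells, a log2 ratio of 0.54. The untreated value is intact and the digits of the LATS2 OE value allow nothing lower, so the direction holds at every placing of the point. At this nearest placing its mean was under 1 FPKM, so it is not in the counts above.

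**Figure D2:**
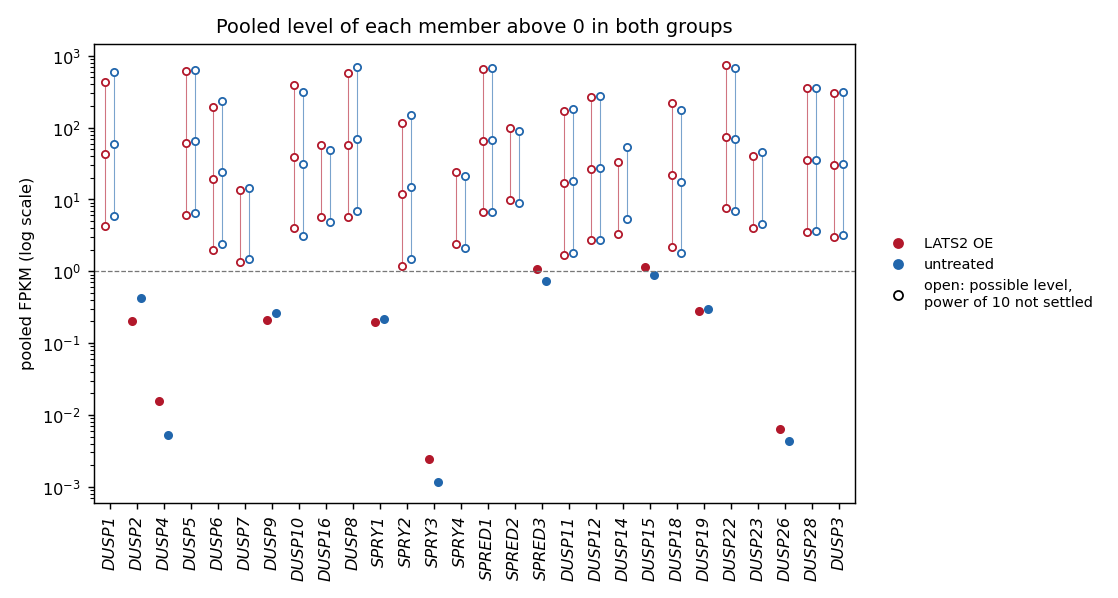
Pooled FPKM on a log scale of the 28 members above 0 in both groups, with LATS2 OE in red to the left of untreated in blue. Filled points are single levels, which for the LATS2 OE values of SPRED3 and DUSP15 are the lowest that the digits allow, and open points joined by a line are the 2 or 3 levels that the digits allow, which shift both groups together. DUSP2 is lower in LATS2 OE cells (0.203 against 0.429 FPKM) and SPRED3 is higher (1.09 against 0.744 FPKM).

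DUSP14 led the atypical phosphatases, which are small and lack the kinase-binding domain of the classical ones. DUSP14 (MKP-6) can act on MAP kinases and on TAB1, an adaptor of the kinase TAK1. It had 3.32 FPKM in LATS2 OE cells and 5.39 FPKM in untreated cells, or both 10 times higher, a log2 ratio of -0.70. Of 11868 settled loci, 34 (0.286%) had a ratio as low or lower. This rank leaves out the loci that differ by more than the limit for a settled ratio. With the 2-fold limit, 84 of 11951 loci (0.703%) were as low or lower, and if all 197 loci without a settled ratio were lower it would be 231 of 12065 (1.91%). The next ratio that its digits allow is 6.16-fold higher in LATS2 OE cells. The hg19 locus of DUSP14 spans bases 35849713 to 35873611 of chromosome 17 (plus strand), is annotated as protein-coding and overlaps a long noncoding RNA on the other strand.

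The other atypical phosphatases of at least 1 FPKM lay between -0.18 and 0.35 on the log2 scale. DUSP15 had 1.14 FPKM in LATS2 OE cells and an intact 0.890 FPKM in untreated cells, a log2 ratio of 0.35, and was higher at every placing of the point. Its locus, at bases 30448870 to 30458479 of chromosome 20 (minus strand, hg19), covers only part of the annotated gene and overlaps TTLL9 on the other strand. DUSP18 had 2.18 FPKM in LATS2 OE cells and 1.78 FPKM in untreated cells at the lowest of 3 levels, a log2 ratio of 0.29, at a locus 2.07 times as long as the annotated gene that also holds SLC35E4. DUSP22, which regulates JNK signaling, had 7.49 FPKM in LATS2 OE cells and 6.84 FPKM in untreated cells at the lowest of 3 levels, a log2 ratio of 0.13. DUSP23 had 4.04 FPKM in LATS2 OE cells and 4.58 FPKM in untreated cells, or both 10 times higher, a log2 ratio of -0.18. DUSP11, an RNA phosphatase, had a log2 ratio of -0.08, DUSP3 (VHR), which acts on ERK and JNK, -0.06, DUSP28 -0.02 and DUSP12 -0.02. These 4 lay within or close to the interquartile range of all loci.

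Several atypical phosphatases had values near 0. DUSP19 had 0.280 FPKM in LATS2 OE cells and 0.298 FPKM in untreated cells. DUSP26 had 0.00640 FPKM in LATS2 OE cells and 0.00434 FPKM in untreated cells. DUSP13 was listed at 0.0169 FPKM in LATS2 OE cells and at 0 in untreated cells, DUSP27 at 0 in LATS2 OE cells and at 0.000975 FPKM in untreated cells, and DUSP21 at 0 in both. In all, 12 of the 32 member loci did not reach a mean of 1 FPKM, and 7 of them lay below 0.1 FPKM in both groups.

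Of 19 RAS-ERK cascade loci of at least 1 FPKM, 0 were 1.5-fold lower or higher, against 0.87% of all loci lower and 0.738% higher. At these shares, 0 calls among so few loci say little about the cascade. The median log2 ratio of the RAS-ERK loci was 0.02. GAB1, an adaptor of receptor tyrosine kinases, was 1.34-fold higher (log2 ratio 0.42), followed by SOS2 at 0.16, RPS6KA2 at -0.15 and PTPN11 at -0.12. MAPK3, which encodes ERK1, had a log2 ratio of 0.12. In the JNK and p38 cascade, 0 of 16 loci were past 1.5-fold, against the same shares of all loci, with a median of 0.03. MAP3K1, a kinase upstream of JNK, had the ratio furthest from 0 at -0.56, and MAP3K4, MAPK8 and MAPKAPK3 had 0.23, -0.22 and 0.18.

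Of transcripts known to be induced by ERK, 4 of 17 loci with a settled ratio were at least 1.5-fold lower, with 0 higher. Counted as for all loci, with unsettled loci as tested, this is 4 of 20, against 0.87% of all loci lower and 0.738% higher. These were LIF, a cytokine of the interleukin-6 family, at a log2 ratio of -0.78, the transcription factor MAFF at -0.68 and the ephrin receptors EPHA2 and EPHA4 at -0.63 and -0.60. LIF, at 1.71-fold lower, lies close to the limit for a settled ratio. FOSL1 and EGR1, transcription factors of the early response, had log2 ratios of -0.57 and -0.48, beside -0.46 for DUSP1. The median of the 17 loci was 0.06, with 7 below 0 and 10 above it. ETV4 and ETV5, which like DUSP6 and SPRY4 are classical readouts of ERK activity, had log2 ratios of 0.02 and 0.17. The ratios of MYC, HBEGF and a second EPHA2 entry, listed at the same coordinates as the first, were not settled by the digits. EPHA2 is therefore counted more than once among the 20 loci, and its -0.63 is from the first entry only.

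Other brakes on receptor, RAS and ERK signaling showed 0 of 16 loci past 1.5-fold and a median log2 ratio of -0.02. Over all loci, 0.87% were at least 1.5-fold lower and 0.738% higher, so 0 of 16 is near those shares. RASAL2, a GTPase-activating protein for RAS, had a log2 ratio of -0.45, DOK1, an adaptor that dampens tyrosine kinase signals, -0.36, and DAB2IP and ERRFI1 0.28 and -0.23. NF1, the neurofibromin that SPRED proteins recruit, had a log2 ratio of 0.01.

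**Figure D3:**
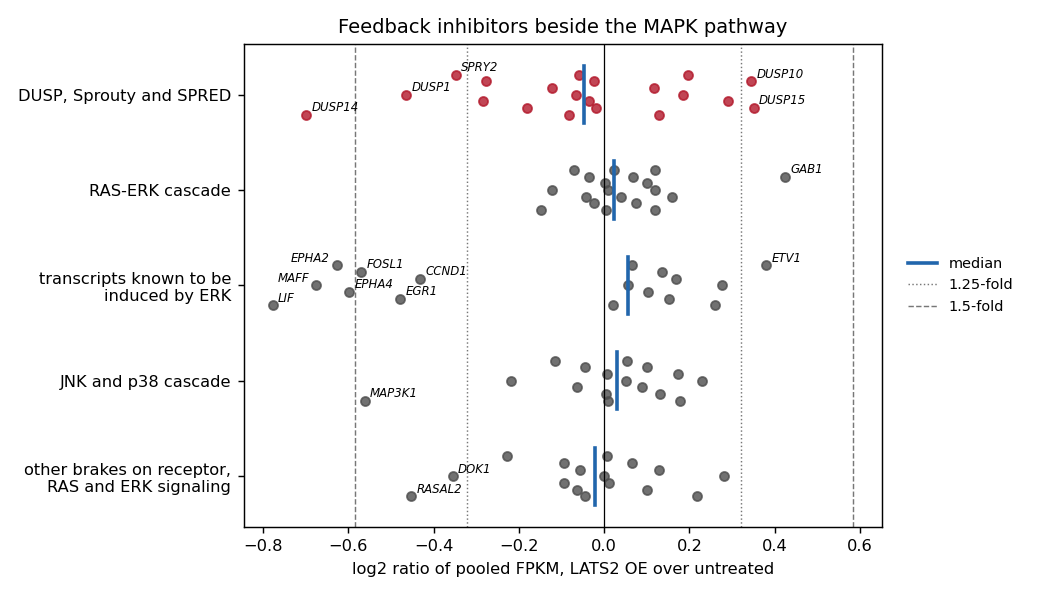
Log2 ratio of pooled FPKM (LATS2 OE over untreated) of the 20 members and of loci of 4 pathway lists, all with a mean of at least 1 FPKM and a settled ratio, 1 point each, with the median of each list as a bar. Dotted and dashed lines mark log2 ratios of 0.32 in size and 1.5-fold, and genes past the dotted lines are named. The member median lies at -0.05 and that of transcripts induced by ERK at 0.06, although 4 of the ERK-induced loci are past 1.5-fold lower.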

How the data were processed

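RNA of 8 samples (4 LATS2 OE, 4 untreated) was sequenced after poly(A) selection. Per the labels and the methods, reads were trimmed with Trimmomatic (version 0.33), aligned to hg19 with TopHat and summarized with the Cufflinks package. For TopHat and Cufflinks no version, and no annotation, is stated in the sources used here. The authors deposited 1 table with an FPKM value per group, pooled over its 4 samples. Its further columns hold the authors' own log2 fold changes, test statistics, p-values and q-values, and none of these was used. The depth per sample is unknown.

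From the FPKM cells all placings of the decimal point were listed, and the pair of values with the ratio nearest to 1 was kept. This step was run on simulated pairs, whose outcome is not given here and which are no test of the deposited values. By its rule it reads large true differences between moved values as small ones, so a ratio treated as settled can be wrong. Where several ratios were possible, those beyond 1.75-fold were not read. The limit was first 2-fold. It was lowered after the values had been seen, because at 2-fold CTGF came out higher in LATS2 OE cells, against an earlier account of these data. The authors' log2 column was not used to settle any cell. No pseudocount was used. Loci with a mean of at least 1 FPKM at the lowest possible level were counted, and at least 1.5-fold counted as different. With pooled values no test was planned or run. The motifs and the promoters shown were also chosen after values had been seen. All members are named, with up to 4 genes per list by absolute log2 ratio and a few more chosen after their values were seen. The members and lists were chosen with earlier results of these data known. Locus overlaps came from the GENCODE annotation lifted to GRCh37, the build of the files. Python (version 3.11) was used, and alternatives are given in the closing section.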

Additional observations from a re-analysis of the deposited data

How the results depend on the processing

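With 1 pooled value per group, no result has a measured error. No paired analysis was possible because the table holds no values per sample, and for the same reason no replicate could be left out. The member count of 1 lower and 0 higher became 3 and 2 at a log2 difference of 0.32, where DUSP1 and SPRY2 joined DUSP14 on the lower side. These were 15.0% and 10.0% of members, against 3.91% and 3.86% of all loci. At 2-fold the member count was 0 lower, which was fixed, since no member ratio beyond the settled limit of 1.75-fold could be counted. Without a filter, 2 of 28 members were lower and 2 higher, against 908 and 1423 over all loci. With a mean of at least 0.1 FPKM, 2 members were lower, DUSP2 being added, against 246 over all loci. Shares of all loci are not given at these filters, so no excess is read from the members. With a pseudocount of 1 FPKM at the lowest possible levels the member count was 0 lower, since DUSP14 then had a log2 ratio of -0.56. At the higher level that its digits allow this shrinkage would be smaller. The member median of -0.05 was -0.066 with a mean of at least 0.1 FPKM, -0.0375 with the pseudocount of 1 FPKM and -0.0437 after centring. The signs of all 20 member ratios held in 60 recomputations with the 2 pseudocounts and with centring, but this outcome was fixed. A pseudocount added to both groups cannot change a sign. The centring shift was -0.0033, smaller in size than the member ratio nearest to 0, that of DUSP12 at -0.0196.

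In the lists, a log2 difference of 0.32 gave 1 of 19 higher in the RAS-ERK cascade and 7 of 20 lower and 1 higher among ERK-induced transcripts. It gave 1 of 16 lower in the JNK and p38 cascade and 2 of 16 lower among other brakes. Over all loci, 3.91% were lower and 3.86% higher. A pseudocount of 1 FPKM gave 1 lower among ERK-induced transcripts, and one of 0.1 FPKM gave 3, with EPHA4 at -0.57 no longer counted. Both weaker filters gave 1 higher among ERK-induced transcripts (FOS) and 1 lower and 1 higher in the JNK and p38 cascade. No filter gave 2 higher among other brakes. For the lists too, shares of all loci are not given at these filters, so no excess is read. The 2-fold setting was not run for the lists, since most larger ratios are not settled.

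The fold up to which a ratio counts as settled was lowered from 2 to 1.75 after the data had been seen. At 2-fold, 114 instead of 197 loci were not settled, 155 instead of 105 loci were at least 1.5-fold lower and 122 instead of 89 higher. The counts of the members and of the 4 lists were the same. This was fixed, since none of their loci of at least 1 FPKM had a ratio between 1.75-fold and 2-fold. At a log2 difference of 0.32, 522 instead of 472 loci were lower and 499 instead of 466 higher. With settled ratios up to 1.75-fold, the counts of 105 lower and 89 higher over all loci were 472 and 466 at a log2 difference of 0.32, 908 and 1423 without a filter, 246 and 380 with a mean of at least 0.1 FPKM, and 23 and 19 with a pseudocount of 1 FPKM.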

Other observations

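Relatives of the DUSP family that the naming rule leaves out were also looked up, a list chosen after the table had been seen. Of these genes, SSH1, a Slingshot phosphatase that activates the actin-severing protein cofilin, had a log2 ratio of -0.35 (1.29 FPKM in LATS2 OE cells and 1.65 FPKM in untreated cells at the lowest of 3 possible levels). SSH2 and SSH3 had log2 ratios of 0.00012 and -0.04. PTP4A3, a prenylated phosphatase, was higher with a log2 ratio of 0.45, while PTP4A1 and PTP4A2 had 0.05 and 0.08. The pseudophosphatase STYX, which binds ERK, had a log2 ratio of -0.06. Whether these differences exceed the spread between samples cannot be seen from pooled values.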
